A study of Drosophila melanogaster with 10 samples.

Results

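Glutathione S-transferase (Gst) and UDP-glycosyltransferase (Ugt) genes were followed in polyadenylated RNA of whole female *Drosophila melanogaster* larvae in the third instar. They were taken as the genes of the count table whose symbol starts with Gst or Ugt and that had at least 10 counts summed over the 10 libraries. This gave 68 genes, 35 Gst and 33 Ugt, out of 70 such symbols and out of 17402 genes in all. The table held 13551 genes with at least 10 counts. Ugt37A1, with 8 counts, and Ugt37E1, with 2 counts, fell under the minimum, and the genes just above it were Ugt36F1 with 23 counts and GstE4 and Ugt35D1 with 25 counts each. The 5 strains, with 2 libraries each, differ at AGO2, the Argonaute that carries small interfering RNAs. By the strain field they were 51B (a null allele, with no wild-type copy named), 51B/+ (the same allele over a wild-type copy), V966M (an allele defective in RNA slicing), V966M/+ (that allele over a wild-type copy) and the control w. The question was which genes respond to loss of the AGO2 protein and which to loss of its slicing activity alone. Ages, the number of larvae pooled and any common genetic background of the strains are not given in the sources used here. Values of the 2 libraries of a strain are given with replicate 3 before replicate 4.

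Gst enzymes join the tripeptide glutathione to reactive or fat-soluble compounds, and Ugt enzymes, which sit in the membrane of the endoplasmic reticulum, join a sugar from a UDP-sugar to them. Both make the product easier to dissolve and to export, a step that usually follows oxidation by cytochrome P450s. In insects these enzymes are best known for the clearance of insecticides and plant toxins, and larvae carry them in the gut, the fat body and the Malpighian tubules. Many of the genes lie in tandem arrays that arose by local duplication, and several are induced by the transcription factor cnc when its inhibitor Keap1 is inactivated.

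The labels were first checked at AGO2 itself. AGO2 was counted at 105 and 99.7 CPM in 51B (CPM, the library's share of counts scaled by the TMM method), 3.86 and 2.84 CPM in 51B/+, 236 and 163 CPM in V966M, 249 and 194 CPM in V966M/+ and 229 and 152 CPM in w. The near absence of AGO2 in the libraries labelled 51B/+ goes against that label, and so does its presence in those labelled 51B, a null allele with no wild-type copy named, at 102.5 CPM ± 3.97 against 190.6 ± 54.1 in w (SD, n = 2). The titles of the libraries labelled 51B/+ and V966M/+ name the allele in duplicate, and if the titles are right the names of both pairs of strains are exchanged. AGO2 RNA did not separate V966M/+ from V966M, so it bears on the labels of the 51B pair only, and directions between V966M and V966M/+ rest on their labels. Strains are therefore called below as they were labelled, and 51B/+ and V966M/+ stand for the libraries labelled so. Library totals ran from 22337432 to 60886803 counts, with replicate 3 the deeper library in all 5 strains. Nothing in the labels states whether the 2 libraries came from separate cultures beyond the design text, which calls them biological replicates. Summed markers of fat body and glue were abundant in all 10 libraries, and markers of midgut and Malpighian tubule were present in each. In whole larvae, fewer cells of a type and less RNA per cell cannot be told apart.

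Along the genome the 68 genes were clustered. In the dm6 assembly, 49 of them lay within 10 kb of another member. The 11 delta class genes, from GstD10 to GstD11, occupied 20.8 kb on 3R (12364776 to 12385624). A group of 10 epsilon class genes, GstE1 to GstE10, occupied 13.2 kb on 2R (18396638 to 18409835). The largest Ugt array held 9 genes over 26.9 kb on 3R (11151026 to 11177910). Reads were 50 bases long, so that reads from near-identical stretches of such copies could be lost or misplaced. Exons of 11 members overlapped exons of another gene, and since strand was not recorded those reads cannot be assigned. The overlap passed 10% of the exon bases only in Ugt36A1 (17.4%, with CG15418) and GstT2 (25.1%, with CG12926).

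Per kilobase of exon, Gst genes were the more abundant family. The median level was 16.7 CPM per kb for Gst and 2.25 CPM per kb for Ugt, averaged over the 10 libraries. GstD1 led with 1116 CPM per kb, followed by GstS1 with 175, GstE12 with 145, GstO3 with 138 and GstE3 with 108 CPM per kb. The most abundant Ugt genes were Ugt301D1 with 35.9, Ugt37A3 with 26.5, Ugt36D1 with 24.2, Ugt35A1 with 20.7 and Ugt316A1 with 14.0 CPM per kb. In contrast, 11 members, 3 Gst and 8 Ugt, averaged under 1 CPM, and fold changes of these rest on few counts. The average level of 40 of the 68 genes was at least 5 CPM.

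**Figure D1:**
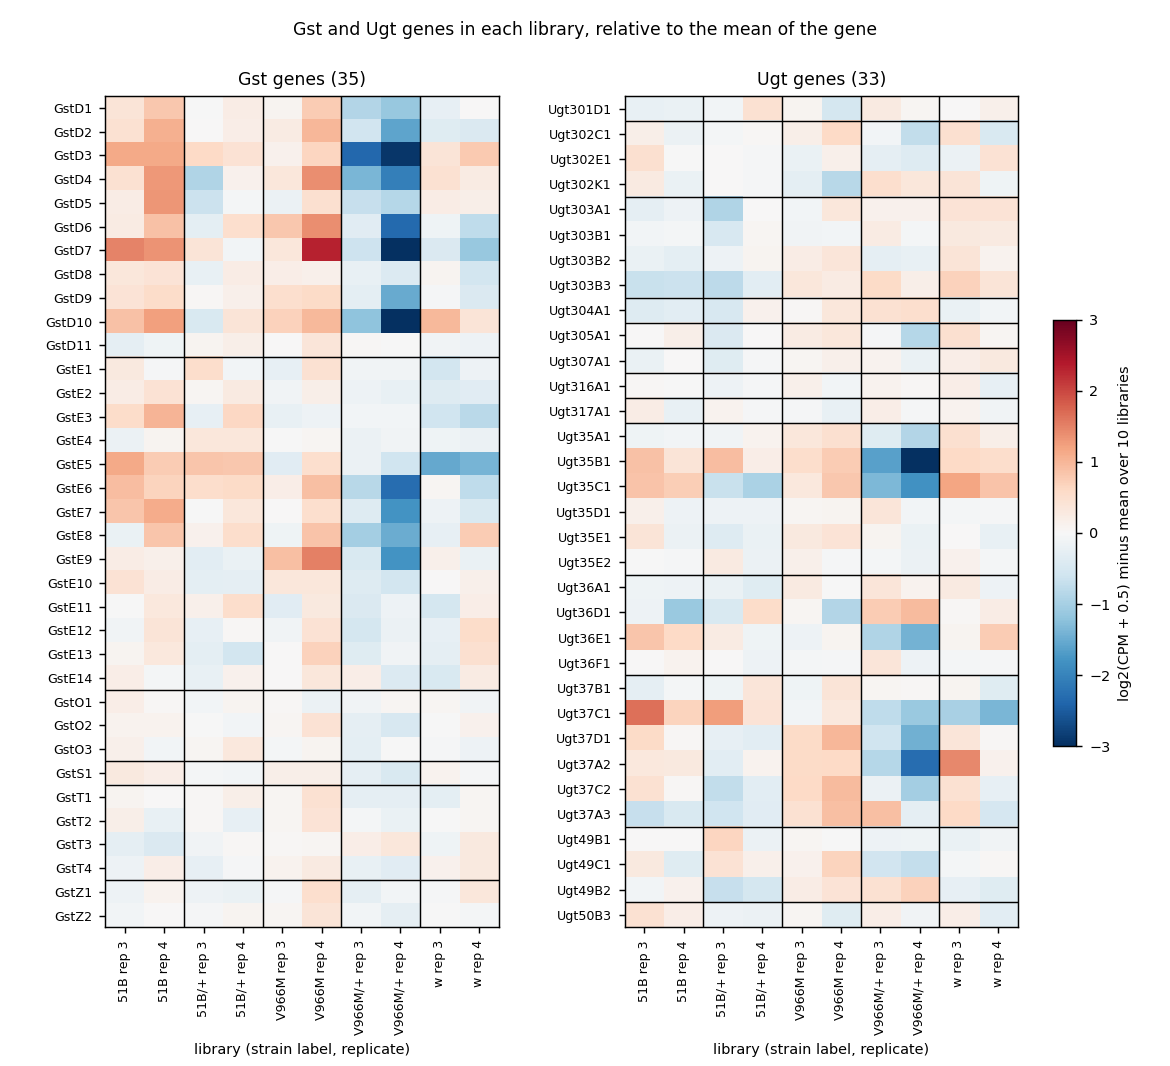
Levels of the 35 Gst genes (left) and the 33 Ugt genes (right) in the 10 libraries, as log2(CPM + 0.5) minus the mean of the gene over the libraries; columns are libraries ordered by strain label, and horizontal lines separate classes. Most delta class genes are lowest in V966M/+, and replicate 4 of V966M/+ is the lowest library of 29 of the 68 genes.

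The strain with the most divergent levels was V966M/+. Summed over the 35 genes, Gst RNA was 2951 CPM ± 355 in 51B, 2291 ± 222 in 51B/+, 2785 ± 619 in V966M, 1491 ± 88.1 in V966M/+ and 2166 ± 184 in w (SD, n = 2). Both V966M/+ libraries, with 1553 and 1429 CPM, were under all 8 others, of which the lowest had 2035. Summed Ugt RNA did not separate the strains in this way, with 351 CPM ± 31.9 in 51B, 373 ± 51.3 in 51B/+, 429.5 ± 5.40 in V966M, 405 ± 56.6 in V966M/+ and 421 ± 52.2 in w (SD, n = 2). Taken gene by gene, both V966M/+ libraries were below the other 8 for 20 of the 68 members (29.4%), against 10.7% of all genes tested. These 20 were 12 Gst and 8 Ugt genes. Both were above the other 8 for Ugt304A1, Ugt36D1 and Ugt49B2, that is 4.41% of members, against 8.07% of all genes. For the control strain, both w libraries were below the others for GstE2, GstE3 and GstE5 (1.48% of all genes) and above them for Ugt303A1, Ugt303B1, Ugt307A1 and Ugt35C1 (2.37% of all genes). Both 51B libraries were highest for GstD3, GstD8, GstE7 and GstS1 (3.14% of all genes), and both V966M libraries for GstE9, Ugt37C2 and Ugt37D1 (1.85% of all genes).

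The replicates of V966M/+ also differed from each other. Among the 40 members with a mean of at least 5 CPM, 9 (22.5%) were over 2-fold apart between the V966M/+ libraries, after a pseudocount of 0.5 CPM, and all 9 were lower in replicate 4. None was so far apart in 51B, and 1 was in each of the other strains. Of all genes at that level, 4.48% were that far apart in V966M/+, and the share was 1.44% for 51B, 4.01% for 51B/+, 4.2% for V966M and 2.81% for w. GstD7 gave 164 and 1 counts in V966M/+, GstD10 gave 607 and 55, and GstD6 gave 79 and 2. Replicate 4 of V966M/+ was the lowest library of 29 members (42.6%), against 15.5% of all genes tested. Markers of fat body summed to 49560 and 45860 CPM in V966M/+, under the 52780 to 79240 CPM of the other 8 libraries. The 5 fat body genes did not move together, since Lsp1alpha was lowest in V966M/+ (8595 and 3092 CPM, against 11280 and 8431 CPM in w) and Fbp1 was highest there (18670 and 25640 CPM, against 15860 and 15410 CPM in w), and none of the 5 was called in any comparison. The part of fat body content in the levels of the 68 genes was not tested.

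Members were next tested between strains with the quasi-likelihood test of edgeR over all 13551 genes, and a gene was called where its p, adjusted by Benjamini-Hochberg, was under 0.1. Of the 68 genes, 24 were called in at least 1 of 8 comparisons, 12 Gst and 12 Ugt, and 44 in none. The share of all genes called in at least 1 comparison was not counted, so whether 24 of 68 is unusual was not tested. The 4 comparisons with w share its libraries, and those of V966M/+ with w, 51B/+ and V966M share the V966M/+ libraries, so that their calls are not independent of each other.

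In 51B over w, 3 members rose (GstE3, GstE5 and Ugt37C1) and 1 fell (Ugt303B3), with 0.421% of all genes higher and 0.317% lower. In 51B/+ over w, GstE5 and Ugt37C1 rose and Ugt303B3 and Ugt35C1 fell, with 0.827% of all genes higher and 0.959% lower. V966M over w had no member called, and 0.125% of all genes either way. There, 6 members had an unadjusted p under 0.05, and DESeq2 called 1. Shares of all genes are for the edgeR call only, and none was counted for unadjusted p, for DESeq2 or without 1 library. In V966M/+ over w no member rose and 4 fell (GstD3, Ugt35B1, Ugt35C1 and Ugt36E1), with 0.421% of all genes higher and 0.723% lower. DESeq2 called 13 members in that comparison. Leaving out w replicate 4 left 2 calls there, GstD3 and Ugt35C1, while leaving out V966M/+ replicate 3 gave 14. For 51B over w, 0 or 1 member was called whichever of the 4 libraries was left out, and for 51B/+ over w the count was 2 without either w library and 7 without 51B/+ replicate 4.

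Comparisons between mutant strains were uneven. In V966M over V966M/+, 18 members rose and 1 fell, with 5.67% of all genes higher and 1.03% lower. In 51B/+ over V966M/+, 8 members rose and 2 fell, with 4.52% of all genes higher and 1.56% lower. By contrast, no member was called in 51B over V966M, where 0.118% of all genes were, or in 51B over 51B/+, where 0.0812% of all genes were. In those 2 comparisons 11 and 7 members had an unadjusted p under 0.05, and DESeq2 called 1 member in each. Here too the matching shares of all genes were not counted. Most calls in V966M over V966M/+ and in 51B/+ over V966M/+ were lost without 1 library, while those of GstD3 were kept. V966M over V966M/+ kept 3 calls without V966M/+ replicate 4 (GstD3, Ugt35B1 and Ugt35C1) and 2 without V966M replicate 4 (GstD3 and Ugt35C1). 51B/+ over V966M/+ gave 2 calls without V966M/+ replicate 4, 1 without 51B/+ replicate 3 and 18 without V966M/+ replicate 3. When the (51B over 51B/+) change was set against the (V966M over V966M/+) change in 1 model, a test added after the data were seen, GstD3 was the only member called, beside 0.0886% of all genes.

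**Figure D2:**
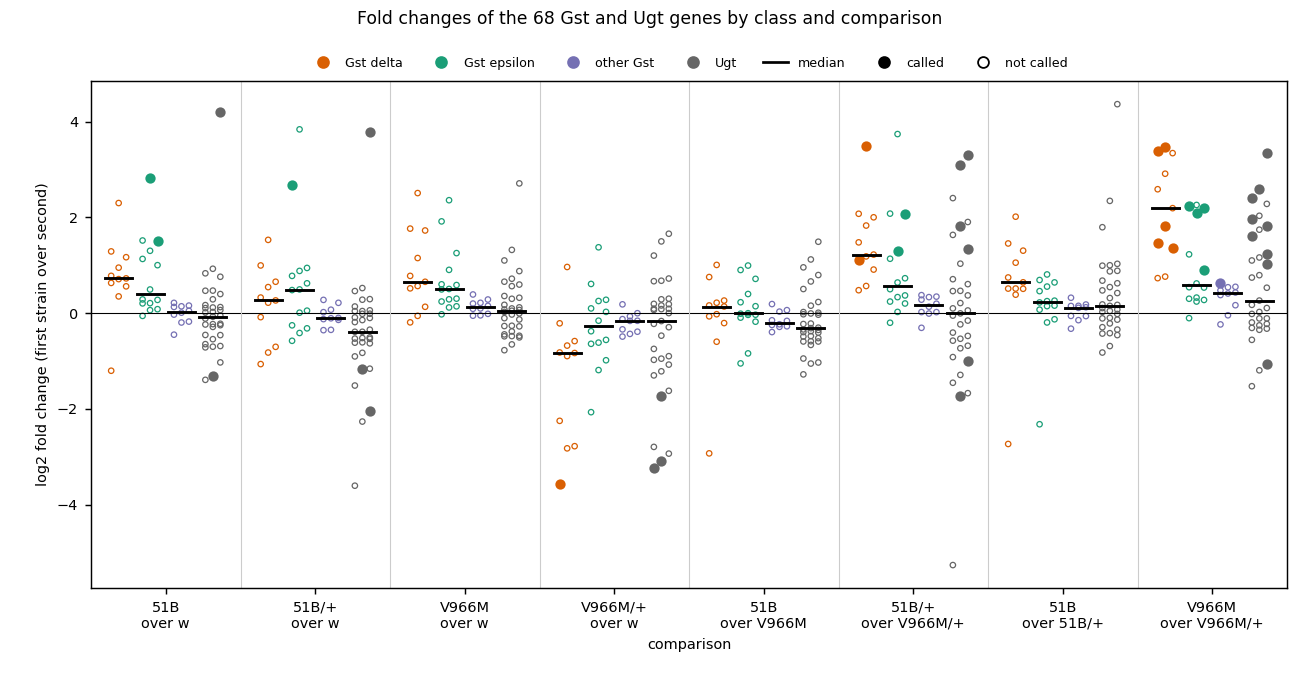
Log2 fold changes from the edgeR fit for the 68 genes in 8 comparisons, first strain over second, by class; each point is a gene, filled where the adjusted p was under 0.1, and black bars are medians. The delta class has its median at -0.83 in V966M/+ over w and at 2.19 in V966M over V966M/+, and fitted values of genes near 0 counts depend on the prior count.

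The median log2 fold change of the 68 genes was 0.13 in 51B over w, -0.10 in 51B/+ over w, 0.19 in V966M over w and -0.32 in V966M/+ over w, where the medians of all genes were -0.02, 0.02, -0.02 and 0.00. It was 0.58 in V966M over V966M/+ and 0.36 in 51B/+ over V966M/+, against -0.02 and 0.03 for all genes. These signs were kept under RLE normalization and under DESeq2, but the sizes moved with single libraries. The median in V966M/+ over w was -0.15 without V966M/+ replicate 4 and -0.42 without V966M/+ replicate 3. That in V966M over V966M/+ lay between 0.37, without V966M replicate 4, and 0.93, without V966M/+ replicate 3, and that in V966M over w was 0.09 without V966M replicate 4 and 0.42 without V966M replicate 3. For the Ugt genes alone the median in V966M/+ over w was -0.17, and it was 0.00 once genes with at most 3 counts per library in a strain were set to the bound those counts allow.

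The delta class holds GstD1, a main cytosolic Gst of the fly that can break down DDT and is a standard reporter of cnc activity. GstD1 (FBgn0001149; 3R, 12367817 to 12369268) was counted at 1138 and 1529 CPM in 51B, 859.6 and 1016 in 51B/+, 915 and 1472 in V966M, 472 and 394 in V966M/+ and 732 and 881 in w. The V966M/+ libraries were lowest, and they did not overlap those of any other strain. GstD1 rose in V966M over V966M/+ (log2 fold change 1.46, SE 0.30, adjusted p = 0.0449) and in 51B/+ over V966M/+ (1.12, SE 0.30, adjusted p = 0.0881), the second of which was lost whichever of its 4 libraries was left out (0.135 to 0.406). In V966M/+ over w its log2 fold change was -0.90 and did not pass the test.

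GstD3 (FBgn0010039; 3R, 12373068 to 12373813), another member of the class, was the most clearly separated gene of the array in V966M/+. It was counted at 26.2 and 26.1 CPM in 51B, 17.7 and 15.8 in 51B/+, 12.7 and 18.5 in V966M, 1.86 and 1.09 in V966M/+ and 15.2 and 20.4 in w. Raw counts in V966M/+ were 85 and 36, against 832 and 484 in w. GstD3 fell in V966M/+ over w (log2 fold change -3.57, SE 0.30, adjusted p = 0.0013). It rose in V966M over V966M/+ (3.38, SE 0.30, adjusted p = 0.00401) and in 51B/+ over V966M/+ (3.49, SE 0.30, adjusted p = 0.00114). All 3 calls held without any 1 library, in edgeR and in every other setting tried.

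GstD2, GstD4 and GstD9 also had their lowest library in V966M/+. GstD4 had 3.76 and 7.06 CPM in 51B, 1.14 and 2.89 in 51B/+, 3.44 and 7.61 in V966M, 0.70 and 0.24 in V966M/+ and 3.74 and 3.16 in w. GstD2 had 7.19 and 11.3 CPM in 51B, 5.13 and 5.91 in 51B/+, 6.14 and 10.8 in V966M, 3.30 and 1.36 in V966M/+ and 3.87 and 3.67 in w. GstD9 had 16.3 and 18.0 CPM in 51B, 12.6 and 13.7 in 51B/+, 17.4 and 18.5 in V966M, 9.94 and 3.97 in V966M/+ and 11.96 and 8.94 in w. All 3 rose in V966M over V966M/+, by log2 fold changes of 3.48 (SE 0.66) for GstD4, 1.83 (SE 0.42) for GstD2 and 1.36 (SE 0.35) for GstD9, with adjusted p of 0.0405, 0.0595 and 0.0768. V966M/+ overlapped w only for GstD9. These calls and that of GstD1 were lost without V966M/+ replicate 4, at adjusted p of 0.237 to 0.282, and without V966M replicate 4, at 0.251 to 0.404, and that of GstD9 also without V966M replicate 3 (0.104). With 1 library left out the log2 fold change ran from 2.81 to 4.46 for GstD4, from 1.35 to 2.60 for GstD2 and from 0.86 to 2.17 for GstD9.

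GstD10 and GstD7 had large but uneven differences. GstD10 was counted at 58.2 and 73.5 CPM in 51B, 22.6 and 41.0 in 51B/+, 51.0 and 62.3 in V966M, 13.3 and 1.67 in V966M/+ and 61.9 and 41.3 in w. GstD7 was counted at 17.3 and 15.6 CPM in 51B, 7.73 and 5.51 in 51B/+, 7.49 and 30.8 in V966M, 3.58 and 0.030 in V966M/+ and 4.2 and 2.36 in w. Both w libraries were under those of 51B, 51B/+ and V966M for GstD7, and its log2 fold changes over w were 2.30 (SE 1.14), 0.995 (SE 1.12) and 2.51 (SE 1.14), none of which passed the test.

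Over the 11 delta genes the fitted change was above 0 for 10 in 51B over w and below 0 for 10 in V966M/+ over w, with medians of 0.73 and -0.83. Of them, 0 and 1 were called, where 0.421% of all genes were higher in the first and 0.723% lower in the second. The change was also above 0 for 9 in V966M over w and for 7 in 51B/+ over w, with medians of 0.654 and 0.265 and 0 called in each. In V966M over V966M/+ all 11 were above 0, 5 were called, beside 5.67% of all genes called higher, and the median was 2.19. Of all 13551 genes, 6258 were above 0 in 51B over w and 6772 below 0 in V966M/+ over w. Above 0 in V966M over w and in 51B/+ over w were 6247 and 7086 of all genes. In V966M over V966M/+, 6423 of all genes were above 0. The 11 genes lie in 1 array, and whether they vary independently was not tested. Without V966M/+ replicate 4 the delta class median in V966M/+ over w was -0.18, and in V966M over V966M/+ it was 1.71. Without V966M/+ replicate 3 these medians were -2.65 and 2.60. Summed without GstD1, delta class RNA was 134 and 160.2 CPM in 51B, 69.9 and 90.4 in 51B/+, 105 and 158 in V966M, 35.6 and 9.33 in V966M/+ and 105.0 and 82.4 in w.

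**Figure D3:**
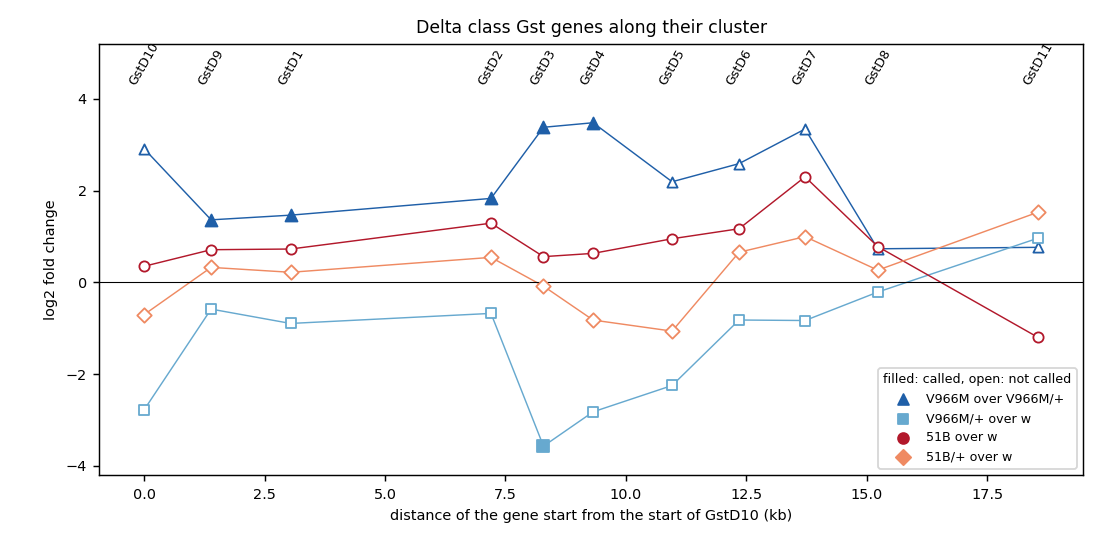
Log2 fold changes of the 11 delta class Gst genes against the distance of each gene start from that of GstD10, in kb, for 4 comparisons; filled symbols are called. In V966M/+ over w 10 of the 11 lie below 0 and the lowest are GstD3, GstD4 and GstD10, and in V966M over V966M/+ all 11 lie above 0, with GstD11, at the far end, and GstD8 nearest to 0.

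The epsilon class, which is particular to insects, had 14 members, of which 6 were called in at least 1 comparison, a share not counted over all genes. Its median log2 fold change was -0.27 in V966M/+ over w and 0.58 in V966M over V966M/+, with 0 and 4 members called. Of all genes, 0.421% were called higher and 0.723% lower in the first, and 5.67% higher and 1.03% lower in the second. GstE5 (FBgn0063495; 2R, 18404605 to 18405338) was counted at 10.7 and 8.10 CPM in 51B, 8.63 and 8.40 in 51B/+, 3.56 and 6.68 in V966M, 4.04 and 2.88 in V966M/+ and 1.26 and 1.43 in w. Every mutant library was above both w libraries. GstE5 rose in 51B over w (log2 fold change 2.82, SE 0.34, adjusted p = 0.0191) and in 51B/+ over w (2.67, SE 0.34, adjusted p = 0.00647), and in 51B/+ over V966M/+ (1.29, SE 0.31, adjusted p = 0.068). In V966M over w its change was 1.915 (SE 0.33, edgeR adjusted p = 0.184) and in V966M/+ over w 1.37 (SE 0.33, edgeR adjusted p = 0.138). Neither was called, and nor was 51B over V966M (0.90, SE 0.31). The call in 51B/+ over w was kept in all 11 alternatives. The call in 51B over w was lost without 51B replicate 3 (adjusted p = 0.14) and without w replicate 3 (0.158), and that in 51B/+ over V966M/+ without 51B/+ replicate 3 (0.247) and without V966M/+ replicate 4 (0.365).

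GstE3 (FBgn0063497; 2R, 18400713 to 18401467), in the same array, was counted at 111 and 155 CPM in 51B, 64.4 and 117 in 51B/+, 65.3 and 68.1 in V966M, 71.3 and 72.2 in V966M/+ and 50.5 and 43.6 in w. It rose in 51B over w (log2 fold change 1.497, SE 0.28, adjusted p = 0.0731). That call was lost whichever of the 4 libraries was left out, at adjusted p of 0.2 to 0.445. GstE4, which lies between the pair, had only 25 counts in all.

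For GstE6, GstE8, GstE9 and GstE10, both V966M/+ libraries were below all other libraries. The class did not move as 1, since the fitted change in V966M/+ over w was above 0 for 6 of the 14 epsilon genes and below 0 for 8. Of all genes, 6507 were above 0 and 6772 below 0 there. GstE6 was counted at 18.4 and 15.2 CPM in 51B, 13.9 and 14.4 in 51B/+, 10.95 and 18.0 in V966M, 5.11 and 1.55 in V966M/+ and 9.88 and 5.36 in w. GstE9 was counted at 39.1 and 37.2 CPM in 51B, 26.4 and 29.1 in 51B/+, 62.9 and 95.3 in V966M, 24.3 and 9.18 in V966M/+ and 37.1 and 29.1 in w, and was highest in both V966M libraries. GstE8 was counted at 2.07 and 4.72 CPM in 51B, 2.69 and 3.72 in 51B/+, 2.17 and 4.82 in V966M, 0.94 and 0.55 in V966M/+ and 1.97 and 4.47 in w. GstE6, GstE8 and GstE9 rose in V966M over V966M/+, by log2 fold changes of 2.09 (SE 0.52), 2.19 (SE 0.60) and 2.24 (SE 0.41), with adjusted p of 0.0722, 0.0895 and 0.0385. GstE6 also rose in 51B/+ over V966M/+ (2.07, SE 0.52, adjusted p = 0.0786), a call lost without 51B/+ replicate 3 (0.238), 51B/+ replicate 4 (0.105) or V966M/+ replicate 4 (0.249).

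GstE10 had a small and even difference, with 6.36 and 5.42 CPM in 51B, 3.64 and 3.68 in 51B/+, 5.97 and 5.93 in V966M, 3.41 and 2.94 in V966M/+ and 4.62 and 5.15 in w. It rose in V966M over V966M/+ by 0.90 (SE 0.19, adjusted p = 0.0488) on the log2 scale. The V966M over V966M/+ calls of GstE6, GstE8, GstE9 and GstE10 were lost without V966M/+ replicate 4, at adjusted p of 0.139 to 0.38, and without V966M replicate 4, at 0.258 to 0.547, and that of GstE8 also without V966M/+ replicate 3 (0.149). With 1 library left out the log2 fold change in V966M over V966M/+ ran from 1.503 to 3.20 for GstE6, from 1.53 to 2.67 for GstE8 and from 1.71 to 3.09 for GstE9, and that of GstE6 in 51B/+ over V966M/+ from 1.46 to 3.17. GstE12, the most abundant epsilon gene, was counted at 182 and 256 CPM in 51B, 165 and 201 in 51B/+, 183 and 266 in V966M, 137 and 173 in V966M/+ and 166 and 290.5 in w, and passed no test. GstE14, which acts in ecdysteroid synthesis, was between 1.70 and 3.32 CPM in all libraries and was not called.

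Of the remaining 10 Gst genes, 1 was called in at least 1 comparison, a share not counted over all genes. GstS1, the single sigma class gene, which acts on products of lipid peroxidation, was counted at 479 and 449 CPM in 51B, 375 and 368 in 51B/+, 446 and 443 in V966M, 327 and 284 in V966M/+ and 420.0 and 380.5 in w. Its V966M/+ libraries were the lowest and its 51B libraries the highest, and no comparison passed the test, the smallest adjusted p being 0.161 in V966M over V966M/+. GstO2, of the omega class, whose members act as thiol transferases and dehydroascorbate reductases, was counted at 72.9 and 73.4 CPM in 51B, 67.8 and 64.2 in 51B/+, 71.0 and 91.4 in V966M, 55.9 and 48.8 in V966M/+ and 67.2 and 74.3 in w. It rose in V966M over V966M/+ by 0.63 on the log2 scale (SE 0.17, adjusted p = 0.089), a call lost without V966M/+ replicate 3 (0.143), V966M/+ replicate 4 (0.389) or V966M replicate 4 (0.571). GstO3 was between 97.97 and 151 CPM and was not called. Neither were GstO1, the 4 theta class genes, nor GstZ1 and GstZ2, homologues of the isomerase of tyrosine breakdown.

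**Figure D4:**
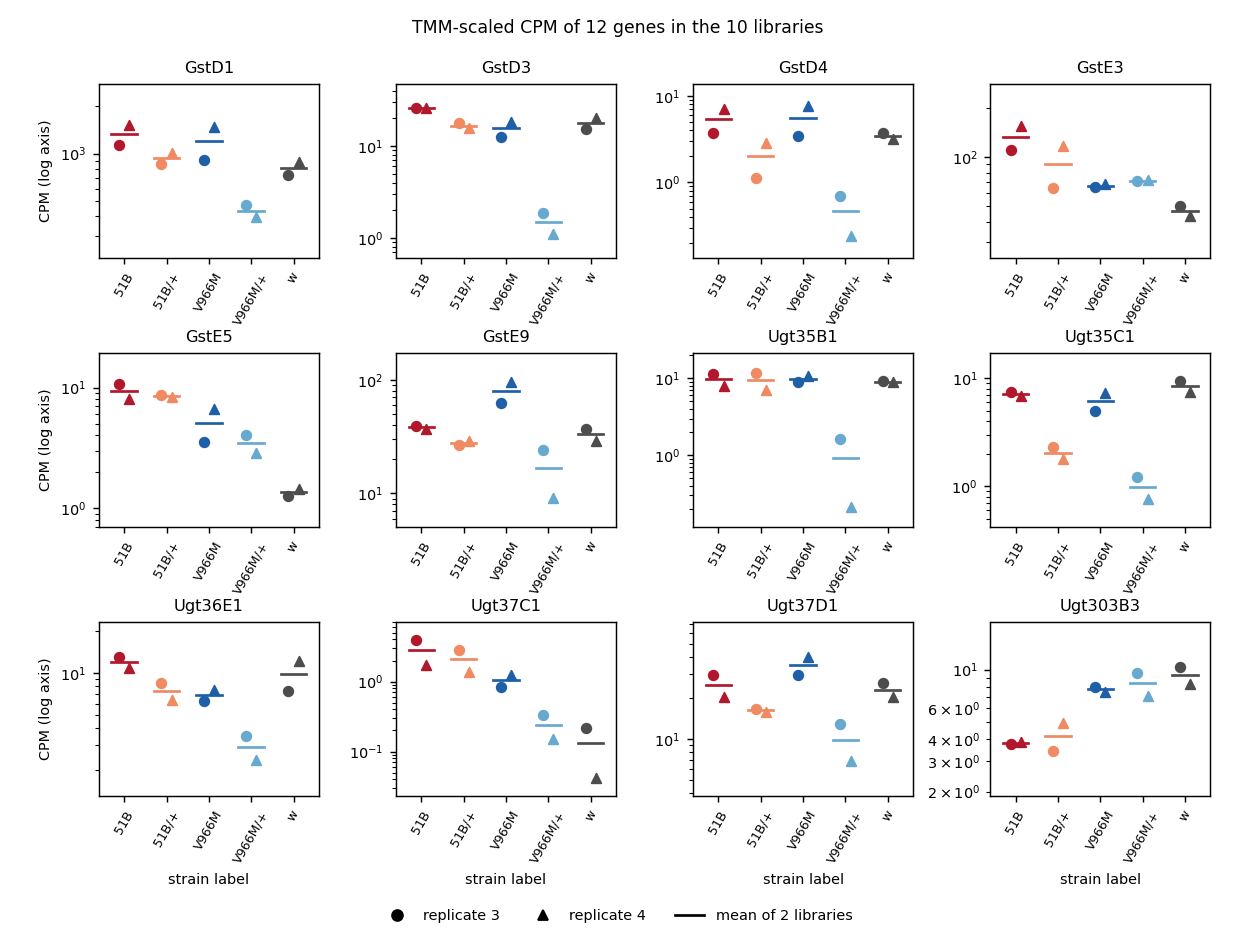
TMM-scaled CPM of 12 Gst and Ugt genes in each library, on log axes that differ between panels; circles are replicate 3, triangles replicate 4 and bars the mean of the 2 libraries of a strain. GstD3, Ugt35B1 and Ugt36E1 are lowest in V966M/+, Ugt35C1 is low in V966M/+ and in 51B/+, and GstE5 is lowest in w.

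In the Ugt35 group 3 of the 6 genes were called in at least 1 comparison, Ugt35A1, Ugt35B1 and Ugt35C1. That share was not counted over all genes. Ugt35C1 (FBgn0040256; 3R, 11126597 to 11128328) was counted at 7.43 and 6.81 CPM in 51B, 2.28 and 1.79 in 51B/+, 4.99 and 7.21 in V966M, 1.22 and 0.76 in V966M/+ and 9.46 and 7.47 in w. It was thus low in the 2 strains whose titles name the allele in duplicate, and all 4 of those libraries were below the other 6. It fell in V966M/+ over w (log2 fold change -3.08, SE 0.31, adjusted p = 0.00355) and in 51B/+ over w (-2.05, SE 0.29, adjusted p = 0.0118), and rose in V966M over V966M/+ (2.59, SE 0.31, adjusted p = 0.0153). Both falls were kept in all 11 alternatives. In 51B over 51B/+ its log2 fold change of 1.79 (SE 0.29, adjusted p = 0.131) did not pass the test.

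Ugt35B1 (FBgn0026314; 3R, 11168503 to 11170246), first described from the antenna of the fly, was counted at 11.4 and 8.05 CPM in 51B, 11.8 and 7.002 in 51B/+, 8.88 and 10.6 in V966M, 1.62 and 0.21 in V966M/+ and 9.28 and 8.86 in w. Its counts in V966M/+ were 74 and 7, and no library of another strain came near them. It fell in V966M/+ over w (log2 fold change -3.24, SE 0.65, adjusted p = 0.0895), a call lost without w replicate 3 (0.279) or w replicate 4 (0.33), and the value ran from -5.39 without V966M/+ replicate 3 to -2.47 without V966M/+ replicate 4. It rose in V966M over V966M/+ (3.34, SE 0.65, adjusted p = 0.0441) and in 51B/+ over V966M/+ (3.30, SE 0.65, adjusted p = 0.0457), which were lost without V966M replicate 4 (0.285) and without 51B/+ replicate 3 (0.17). These 2 values reached 5.48 and 5.43 without V966M/+ replicate 3, and were 2.59 and 2.54 without V966M/+ replicate 4. Its neighbour Ugt35A1 was counted at 32.5 and 33.4 CPM in 51B, 32.9 and 38.2 in 51B/+, 45.1 and 49.5 in V966M, 27.6 and 19.1 in V966M/+ and 49.9 and 40.4 in w. Ugt35A1 rose in V966M over V966M/+ by 1.02 on the log2 scale (SE 0.21, adjusted p = 0.0443; 0.256 without V966M/+ replicate 4 and 0.278 without V966M replicate 4). The other 3 genes of the group, Ugt35D1, Ugt35E1 and Ugt35E2, averaged under 0.2 CPM.

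Ugt36E1 and Ugt36D1, neighbours on 2L, had opposite extremes in V966M/+. Ugt36E1 (FBgn0027070; 2L, 18826770 to 18829059) was counted at 12.9 and 10.9 CPM in 51B, 8.498 and 6.35 in 51B/+, 6.31 and 7.48 in V966M, 3.52 and 2.33 in V966M/+ and 7.41 and 12.2 in w. Ugt36D1 was counted at 45.0 and 22.9 CPM in 51B, 36.1 and 73.5 in 51B/+, 52.4 and 27.1 in V966M, 85.1 and 97.1 in V966M/+ and 51.6 and 58.9 in w. V966M/+ libraries were thus lowest for Ugt36E1 and highest for Ugt36D1. Ugt36E1 fell in V966M/+ over w (log2 fold change -1.73, SE 0.30, adjusted p = 0.0388) and rose in 51B/+ over V966M/+ (1.34, SE 0.30, adjusted p = 0.0583) and V966M over V966M/+ (1.22, SE 0.30, adjusted p = 0.0686). Without V966M/+ replicate 4 these had adjusted p of 0.297, 0.312 and 0.35, and they were also lost, in that order, without w replicate 4 (0.208), 51B/+ replicate 3 (0.278) and V966M replicate 4 (0.391). Ugt36D1 had a log2 fold change of 0.72 (SE 0.43) in V966M/+ over w and was not called in any comparison.

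In the Ugt37 group, Ugt37C1 (FBgn0026754; 2R, 16843296 to 16845038) was near 0 in the control. It was counted at 3.94 and 1.74 CPM in 51B, 2.87 and 1.36 in 51B/+, 0.84 and 1.24 in V966M, 0.33 and 0.15 in V966M/+ and 0.22 and 0.042 in w, where the raw counts in w were 12 and 1. In V966M over w its log2 fold change was 2.71 (SE 0.72, edgeR adjusted p = 0.863) and in V966M/+ over w 0.68 (SE 0.79), and neither was called. Ugt37C1 rose in 51B over w (log2 fold change 4.198, SE 0.72, adjusted p = 0.0527), in 51B/+ over w (3.78, SE 0.71, adjusted p = 0.043) and in 51B/+ over V966M/+ (3.10, SE 0.67, adjusted p = 0.0517). With 1 library left out these log2 fold changes ran from 3.49 to 5.97, from 3.11 to 5.53 and from 2.44 to 3.77. The first of these was lost without any 1 of its 4 libraries (adjusted p of 0.129 to 0.312), the second without 51B/+ replicate 3 or either w library (0.13 to 0.242) and the third without 51B/+ replicate 3 (0.244) or V966M/+ replicate 4 (0.274).

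Of the other Ugt37 genes, Ugt37D1 was counted at 29.6 and 20.5 CPM in 51B, 16.7 and 15.8 in 51B/+, 29.7 and 40.3 in V966M, 12.9 and 6.94 in V966M/+ and 25.7 and 20.5 in w. Ugt37C2 was counted at 2.90 and 2.04 CPM in 51B, 0.99 and 1.49 in 51B/+, 3.25 and 4.29 in V966M, 1.68 and 0.73 in V966M/+ and 2.89 and 1.603 in w. Ugt37A2 was counted at 4.38 and 4.27 CPM in 51B, 2.61 and 3.68 in 51B/+, 5.34 and 5.35 in V966M, 1.64 and 0.30 in V966M/+ and 10.02 and 3.75 in w. All 3 rose in V966M over V966M/+, by log2 fold changes of 1.81 (SE 0.31) for Ugt37D1, 1.62 (SE 0.45) for Ugt37C2 and 2.41 (SE 0.66) for Ugt37A2, with adjusted p of 0.0364, 0.0923 and 0.0931. None of them was called without V966M/+ replicate 4 (adjusted p of 0.173 to 0.37) or without V966M replicate 4 (0.233 to 0.481), and Ugt37A2 also lost its call without V966M replicate 3 (0.143). With 1 library left out the log2 fold change ran from 1.71 to 4.11 for Ugt37A2 and from 1.16 to 2.35 for Ugt37C2. Ugt37A3, the array neighbour of Ugt37A2, was counted at 24.8 and 29.4 CPM in 51B, 26.3 and 31.7 in 51B/+, 55.4 and 76.0 in V966M, 76.2 and 33.3 in V966M/+ and 60.7 and 28.1 in w and was not called.

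Ugt303B3 (FBgn0039085; 3R, 23532945 to 23534767) was lower in both 51B strains than in w. It was counted at 3.73 and 3.83 CPM in 51B, 3.42 and 4.95 in 51B/+, 7.99 and 7.43 in V966M, 9.59 and 7.06 in V966M/+ and 10.4 and 8.27 in w, and all 4 libraries of 51B and 51B/+ were below the other 6. It fell in 51B over w (log2 fold change -1.31, SE 0.25, adjusted p = 0.0767), in 51B/+ over w (-1.17, SE 0.24, adjusted p = 0.0669) and in 51B/+ over V966M/+ (-1.01, SE 0.24, adjusted p = 0.068). Leaving out any 1 library of 51B or w ended the first call (adjusted p of 0.173 to 0.444), the second was lost without 51B/+ replicate 3 (0.444), w replicate 3 (0.401) or w replicate 4 (0.122), and the third without 51B/+ replicate 3 (0.357) or either V966M/+ library (0.123 and 0.205). In 51B over V966M it was not called. Ugt303A1 had 7.55 and 8.25 CPM in 51B, 4.73 and 9.32 in 51B/+, 8.72 and 11.9 in V966M, 10.1 and 10.1 in V966M/+ and 12.4 and 12.4 in w, and although each mutant library was under both w libraries, no comparison was called.

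Ugt49B2 and Ugt49C1 were low, and their changes in 51B/+ over V966M/+ had opposite signs. Ugt49B2 was counted at 1.12 and 1.39 CPM in 51B, 0.57 and 0.70 in 51B/+, 1.52 and 1.81 in V966M, 1.86 and 2.30 in V966M/+ and 0.95 and 0.84 in w, and fell in 51B/+ over V966M/+ (log2 fold change -1.72, SE 0.31, adjusted p = 0.0293). Ugt49C1 was counted at 1.01 and 0.45 CPM in 51B, 1.16 and 0.88 in 51B/+, 0.84 and 1.46 in V966M, 0.33 and 0.24 in V966M/+ and 0.68 and 0.76 in w. It rose in 51B/+ over V966M/+ (1.82, SE 0.50, adjusted p = 0.0943) and in V966M over V966M/+ (1.96, SE 0.50, adjusted p = 0.0748). The calls in 51B/+ over V966M/+ had adjusted p of 0.19 for Ugt49B2 and 0.379 for Ugt49C1 without 51B/+ replicate 3, and of 0.156 and 0.41 without V966M/+ replicate 4, and Ugt49C1 of 0.176 without V966M/+ replicate 3. In V966M over V966M/+, Ugt49C1 had an adjusted p of 0.142 without V966M/+ replicate 3, 0.344 without V966M/+ replicate 4 and 0.474 without V966M replicate 4. Ugt302K1, with 5.44 and 3.78 CPM in 51B, 4.47 and 4.33 in 51B/+, 3.52 and 2.26 in V966M, 6.51 and 5.73 in V966M/+ and 5.92 and 4.05 in w, was the 1 member that fell in V966M over V966M/+ (-1.06, SE 0.29, adjusted p = 0.0892; 0.215 without V966M/+ replicate 3, 0.275 without V966M/+ replicate 4 and 0.543 without V966M replicate 4).

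Of the most abundant Ugt genes not yet described, none was called. Ugt301D1 was between 48.8 and 97.0 CPM and Ugt316A1 between 37.1 and 50.3 CPM in the 10 libraries. Ugt304A1 was counted at 4.38 and 4.57 CPM in 51B, 4.03 and 6.43 in 51B/+, 5.97 and 7.52 in V966M, 8.19 and 8.46 in V966M/+ and 4.99 and 5.53 in w. Its V966M/+ libraries were the highest, with a log2 fold change over w of 0.67 (SE 0.24) that did not pass the test.

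Genes that supply, regulate or work beside these enzymes were examined in 6 lists with 29 genes in all. The first list held 5 genes of glutathione synthesis and turnover (Gclc, Gclm, Gss1, Gss2 and Ggt-1). Of these, Gclc, the catalytic subunit of the first and rate-limiting enzyme of synthesis, fell in 51B over w (log2 fold change -1.15, SE 0.21, adjusted p = 0.0722), at 44.4 and 39.7 CPM in 51B against 98.5 and 88.7 CPM in w. The other mutant libraries were also under both w libraries for Gclc. They had 41.4 and 57.6 CPM in 51B/+, 75.7 and 78.4 in V966M and 64.15 and 47.5 in V966M/+. These strains had log2 fold changes over w of -0.92 (SE 0.21, edgeR adjusted p = 0.102), -0.28 (SE 0.21) and -0.745 (SE 0.21), none of them called. Gclm, the modifier subunit of that enzyme, rose in V966M over V966M/+ (0.93, SE 0.27, adjusted p = 0.0981), and the other 3 genes of that list were not called in any comparison. Among 7 other glutathione and thioredoxin enzymes, Mgstl, a microsomal Gst whose symbol lies outside the rule, was counted at 43.5 and 36.4 CPM in 51B, 50.8 and 35.7 in 51B/+, 40.7 and 50.3 in V966M, 25.1 and 15.03 in V966M/+ and 32.9 and 44.5 in w. It rose in V966M over V966M/+ (1.18, SE 0.29, adjusted p = 0.0672) and in 51B/+ over V966M/+ (1.11, SE 0.29, adjusted p = 0.0828). UGP, which makes UDP-glucose, rose in V966M over V966M/+ (0.88, SE 0.22, adjusted p = 0.0748). None of the 4 regulators (cnc, Keap1, maf-S and Hr96) and none of the 4 export pumps (Mdr49, Mdr50, Mdr65 and MRP) was called by edgeR in any of the 8 comparisons.

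Of 7 P450 genes, Cyp6a8 was lowest in V966M/+, with 48.6 and 37.8 CPM in 51B, 35.7 and 26.0 in 51B/+, 24.1 and 33.3 in V966M, 8.22 and 2.30 in V966M/+ and 35.3 and 33.2 in w. It fell in V966M/+ over w (log2 fold change -2.69, SE 0.50, adjusted p = 0.0655) and rose in 51B/+ over V966M/+ (2.54, SE 0.50) and V966M over V966M/+ (2.43, SE 0.50). Cyp6a2 rose in 51B/+ over V966M/+ by 1.28 (SE 0.32) and in V966M over V966M/+ by 1.36 (SE 0.32). Cyp4e2 rose in 51B over w (1.11, SE 0.19), in 51B/+ over w (1.16, SE 0.19) and in 51B/+ over V966M/+ (1.47, SE 0.19). Cyp12d1-p, which has a near-identical copy so that its counts are uncertain, was at 2.81 and 2.49 CPM in 51B, 2.08 and 3.37 in 51B/+, 3.18 and 3.19 in V966M, 5.64 and 3.30 in V966M/+ and 0.22 and 0.17 in w, and was called higher over w in all 4 mutant strains. Cyp6g1, Cyp6w1 and Cyp12d1-d were not called.

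Summed markers of other tissues also differed between libraries. The 6 midgut proteases and maltase markers summed to 1803 and 2604 CPM in 51B, 833 and 2137 in 51B/+, 3558 and 5219 in V966M, 2840 and 4298 in V966M/+ and 6481 and 7696 in w, so that each mutant library was under both w libraries, and 1 of the 6 genes was called, lower in 51B/+ over w. Malpighian tubule markers summed to 300.1 and 335 CPM in 51B, 222 and 221 in 51B/+, 366 and 510.2 in V966M, 232 and 143 in V966M/+ and 202 and 195 in w, and of these 5 genes 1 was called higher in 51B/+ over w, 1 higher and 1 lower in 51B/+ over V966M/+ and 2 higher in V966M over V966M/+. Most of these sums came from Jon65Aiv for midgut and Uro for tubule, and single genes did not all follow them. In V966M replicate 4, Jon99Ci (499 CPM) and betaTry (172.5 CPM) were above both w libraries (414 and 438, 162 and 141 CPM). In V966M/+, Irk3 (17.3 and 19.7 CPM) and NtR (24.6 and 28.4 CPM) were above both w libraries. Oatp58Db (8.06 and 4.73 CPM) was below them. Glue genes summed to 9433 to 19810 CPM, with 1 of 6 genes called, higher in 51B/+ over V966M/+. Y-linked genes gave 18 counts in 51B/+ replicate 3, 1 in w replicate 3 and none in the other 8 libraries. The part of these tissues in the levels of Gst and Ugt genes was not tested.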

How the data were processed

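The authors extracted total RNA from whole female larvae, enriched polyadenylated RNA and made 2 libraries per strain. Per the labels and the study's methods, single-end reads of 50 bases were trimmed with cutadapt 1.10, aligned to dm6 with HISAT2 2.0.4 and counted over exons, without regard to strand, by featureCounts 1.5.0-p3. The deposited table holds these raw counts per gene, not normalized. Symbols, exon lengths and coordinates came from the Ensembl annotation of the same assembly.

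Counts were analysed in R 4.3.3 with edgeR 4.0.16: genes with at least 10 counts over the 10 libraries, TMM scaling, and the quasi-likelihood test with strain as the only factor, all 10 libraries in 1 fit, so that the 5 strains share 1 estimate of the spread. P-values were adjusted over all 13551 genes by the Benjamini-Hochberg method. SE is an approximate standard error implied by the log2 fold change and its quasi-likelihood test, and it is undefined at a change of 0. Levels are TMM-scaled CPM. Library totals of 22337432 to 60886803 counts put the floor of 3 counts at 0.0513 to 0.149 CPM, and such limits cover counting error only. The statistical script was tested on simulated data.

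The members, the lists and the tests were chosen with earlier results of these data known. Given in full were the members called in at least 1 comparison, the 5 Gst and 5 Ugt genes with the highest CPM per kb and, for each comparison with w, up to 3 members per direction with the largest fold change, provided that they averaged 5 CPM or more and that the libraries did not overlap. GstD6, GstE14 and some values of others were added after they were seen. Alternatives were DESeq2 1.42.0, RLE scaling, other count filters, a fit of the 2 strains alone, a stricter threshold, a replicate block and leaving out each library. The p-values rest on a spread taken for each gene from the 5 strains together, with 2 libraries each. They do not use the spread of the 2 compared strains alone. Of members with a mean of at least 5 CPM, 22.5% were over 2-fold apart between the V966M/+ libraries, more than in any other strain. No sequences are printed.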

Additional observations from a re-analysis of the deposited data

Results flagged for a closer look

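GstD3 was picked out because its change differed between the pairs of mutant strains. The change in 51B over 51B/+ minus that in V966M over V966M/+ was -2.74 on the log2 scale (SE 0.39, edgeR quasi-likelihood test of the interaction, adjusted p = 0.0738), where the first change was 0.64 and the second 3.38. Both V966M libraries were above both V966M/+ libraries, and both 51B libraries above both 51B/+ libraries. It was the only 1 of the 68 members past the threshold in this test, which was added after the data were seen.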

How the results depend on the processing

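Of 451 refitted values of the 41 called fold changes, 308 kept their call, 143 lost it and 0 changed sign. DESeq2, RLE scaling, another low-count filter and the replicate block kept all 41, no count filter lost 5, and the fit of the 2 strains alone lost 31. The share of all genes called under each setting was not counted, so whether the members moved with all genes was not tested. The numbers of members called were as follows. In 51B over w the 4 calls became 8 with the 2 strains alone, 1 at an adjusted p under 0.05 and 0 to 1 without 1 library. In 51B/+ over w the 4 became 2 with the 2 strains alone and 2 to 7 without 1 library. In V966M over w the 0 became 1 with DESeq2, 1 with no count filter and 0 to 1 without 1 library. In V966M/+ over w the 4 became 13 with DESeq2 and 2 to 14 without 1 library. In 51B over V966M the 0 became 1 with DESeq2. In 51B/+ over V966M/+ the 10 became 17 with DESeq2, 1 with the 2 strains alone, 3 at an adjusted p under 0.05 and 1 to 18 without 1 library. In 51B over 51B/+ the 0 became 1 with DESeq2 and 1 with no count filter. In V966M over V966M/+ the 19 became 27 with DESeq2, 1 with the 2 strains alone, 9 at an adjusted p under 0.05 and 2 to 21 without 1 library. The fits of 2 strains alone and without 1 library use fewer samples, and otherwise the cause was not tested.

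Nothing in the labels says that a replicate number marks a shared batch. Deviations of same-numbered libraries correlated at -0.0108 to 0.626 over 9656 genes, above 0.1 for 7 of 10 strain pairs and highest for V966M with w, and in each strain replicate 3 had more counts than replicate 4. A shared batch was not tested. The number was not used as a pairing in the main fit, since the labels name none and not every pair passed 0.1. That rule cannot decide whether a batch was shared. Summed Gst RNA was higher in replicate 4 in 51B, 51B/+, V966M and w, and lower in V966M/+. With the replicate block the counts of members called were 4 in 51B over w, 4 in 51B/+ over w, 0 in V966M over w, 6 in V966M/+ over w, 0 in 51B over V966M, 15 in 51B/+ over V966M/+, 0 in 51B over 51B/+ and 24 in V966M over V966M/+. The matching shares of all genes were not counted. With 2 libraries per strain, and 11 members under 1 CPM, small changes of low genes were not detectable at this depth.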
